A study of Mus musculus with 2 samples.

Results

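The genes that encode the protein parts of the cytosolic ribosome were examined in maps of open chromatin from mouse frontal cortex. They were chosen by their symbols, as protein-coding genes named Rpl or Rps with a number, Rplp0, Rplp1 and Rplp2 of the ribosomal P-stalk, and Rpsa, with the S6 kinase genes left out. The rule found 82 genes among the 21938 protein-coding genes of the annotation. It used no measured value. The 82 comprise 47 large subunit genes, 32 small subunit genes with Rpsa and 3 P-stalk genes. They lie on 19 chromosomes, with 14 on chromosome 7 and 4 on the X chromosome. The maps were made by DNase-seq, which sequences the ends left by DNase I where it can reach the DNA between nucleosomes. The tissue came from female B6CASTF1/J mice, an F1 hybrid strain, at 25 days of age, and there was 1 group with 2 libraries and no comparison between conditions. The labels call the libraries biological replicates 1 and 2, with a biosample each, but list the same donor for the pair, so their spread need not be one between animals.

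Each ribosome is built from ribosomal RNA and one copy of most ribosomal proteins, whose genes are therefore transcribed in all cells and at high rates. Their promoters are typically short and rich in CpG dinucleotides, and they lack a canonical TATA box in many cases. Their transcripts are known for starting with a cytosine followed by a run of pyrimidines, the terminal oligopyrimidine (TOP) motif, through which the mTOR kinase controls their translation. In neurons, which translate mRNA in the cell body and in dendrites and axons, ribosomal protein mRNAs are also found in the processes.

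The files hold peaks, which are regions of dense cutting, and footprints, which are short stretches inside such regions where cutting drops as it does under a bound protein. Replicate 1 has 85603 peaks and 214072 footprints, and replicate 2 has 87847 peaks and 189951 footprints. The value of a peak is the signal that the authors normalized to read depth, whose scale is not stated and whose sequencing depth is unknown. The value of a gene is that of its strongest peak within 1 kb of any of its annotated starts. Genes that mark the cell types of cortex carried promoter peaks in both libraries in 10 of 12 cases, where 61.5% of all coding genes did. Mean values were 2.35 for Camk2a, 1.56 for Neurod2 and 1.04 for Slc17a7 of excitatory neurons. For inhibitory neurons they were 1.03 for Gad1, 0.699 for Slc32a1 and 0.602 for Gad2. They were 1.41 for Slc1a2 and 1.63 for Sox9 of astrocytes, and 1.35 for Olig1 of the oligodendrocyte lineage. Mog of myelinating oligodendrocytes and P2ry12 of microglia had no promoter peak, while Cx3cr1, also of microglia, had a value of 0.426. A value from bulk tissue averages over these cells, so more cells with an open promoter and a more open promoter in each cell cannot be told apart.

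The sequences of 4 ribosomal protein promoters with high values and of the 2 with the lowest are given here to show how much of each was covered by footprints. Each runs from 100 bp before the annotated start to 20 bp from it, 5′ to 3′ in the direction of transcription, in RefSeq's copy of the GRCm38.p6 genome, the build of the files. Capitals mark bases under a footprint in both libraries. The windows are chr5:115559367-115559486 on the plus strand for Rplp0, chr2:26910664-26910783 on the plus strand for Rpl7a, chr10:23787256-23787375 on the minus strand for Rps12 and chr11:97782418-97782537 on the minus strand for Rpl23. The windows of the weakest are chrX:102189375-102189494 for Rps4x and chrX:37085383-37085502 for Rpl39, both on the minus strand.
Rplp0: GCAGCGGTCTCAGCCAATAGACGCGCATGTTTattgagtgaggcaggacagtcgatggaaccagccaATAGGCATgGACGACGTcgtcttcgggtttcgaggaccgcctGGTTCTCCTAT
Rpl7a: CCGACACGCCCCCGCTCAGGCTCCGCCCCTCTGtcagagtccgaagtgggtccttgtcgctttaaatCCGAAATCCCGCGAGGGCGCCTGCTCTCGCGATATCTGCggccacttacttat
Rps12: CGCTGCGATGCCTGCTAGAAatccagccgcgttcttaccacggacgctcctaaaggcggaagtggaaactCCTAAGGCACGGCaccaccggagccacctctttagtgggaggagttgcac
Rpl23: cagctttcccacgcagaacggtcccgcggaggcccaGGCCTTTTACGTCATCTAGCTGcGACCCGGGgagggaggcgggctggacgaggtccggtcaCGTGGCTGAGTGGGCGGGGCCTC
Rps4x: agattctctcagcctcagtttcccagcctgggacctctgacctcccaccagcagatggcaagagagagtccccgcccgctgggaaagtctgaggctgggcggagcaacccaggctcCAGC
Rpl39: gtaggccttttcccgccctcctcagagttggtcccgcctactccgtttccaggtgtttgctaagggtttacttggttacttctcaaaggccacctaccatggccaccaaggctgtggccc
Of the 120 bases, footprints in both libraries covered 59 in Rplp0, 72 in Rpl7a, 33 in Rps12 and 53 in Rpl23, against 4 in Rps4x and 0 in Rpl39. Rpl39 had 5 and 6 footprints in its promoter, in replicates 1 and 2, but the 11 and 10 of its 120 bases that they covered in this window were different ones.

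Nearly every ribosomal protein gene had an open promoter in both libraries. A promoter peak was present in both for 79 of the 82 genes (96.3%), against 61.4% of the 21856 other protein-coding genes and 61.5% of all 21938. When the other genes were weighted to the CpG content of the ribosomal protein genes, 86.9% of them had one. The CpG weighting gives each of 10 bins of CpG count, taken in the 1 kb centred on the gene's 5′ end in the annotation, the share it has among the ribosomal protein genes. Their median CpG count was 64, against 41 for other genes. The 3 genes without a peak in both libraries were Rpl3l, Rpl39l and Rpl10l, each a paralog of a widely used gene and known for expression in striated muscle (Rpl3l) or in male germ cells (Rpl39l and Rpl10l). Rpl3l and Rpl39l had no promoter peak in either library. Rpl10l had none in replicate 1 and a peak of 135 bp with a value of 0.286 in replicate 2, under the lowest value of any other member. The widely used counterparts had mean values of 4.79 for Rpl3, 1.51 for Rpl39 and 2.54 for Rpl10.

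Among the 79 genes with a peak in both libraries, the strongest promoter belonged to Rplp0, which encodes the protein that anchors the P-stalk to the large subunit. Its value was 8.78 in replicate 1 and 8.39 in replicate 2 (mean 8.59 ± 0.274, SD, n = 2), which placed it at rank 33 of the 13489 coding genes with such a peak. Rpl7a, a large subunit gene with 3 small nucleolar RNA (snoRNA) genes within its span, followed with 6.48 and 8.21 (mean 7.34 ± 1.22). The next was Rps12, a small subunit gene, with 5.98 and 7.02. Their order relative to each other was the same in both libraries, although the spread between the libraries of Rpl7a was larger than its distance from Rps12. Rpl23 had 6.01 and 6.58, and Rpl26, whose protein lies near the peptide exit tunnel, had 5.87 and 6.18. The ranges of Rpl23 and Rpl26 overlapped.

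At the other end, Rps4x, the X-linked gene of a small subunit protein, had 1.60 and 1.23 (mean 1.41 ± 0.263) and ranked 9636 of 13489. Rpl39, also X-linked and encoding a small protein of the exit tunnel wall, had 1.55 and 1.46. Rpl6 had 1.50 and 1.76, and Rpl4, another protein that lines the exit tunnel, had 1.89 and 1.55. Rpl23a, whose protein sits at the exit of the tunnel, had 1.97 and 2.19. The ranges of Rps4x and Rpl39 overlapped, as did those of Rpl6 and Rpl4. The highest mean value in the family, that of Rplp0, was 6.08 times the lowest, that of Rps4x.

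**Figure D1:**
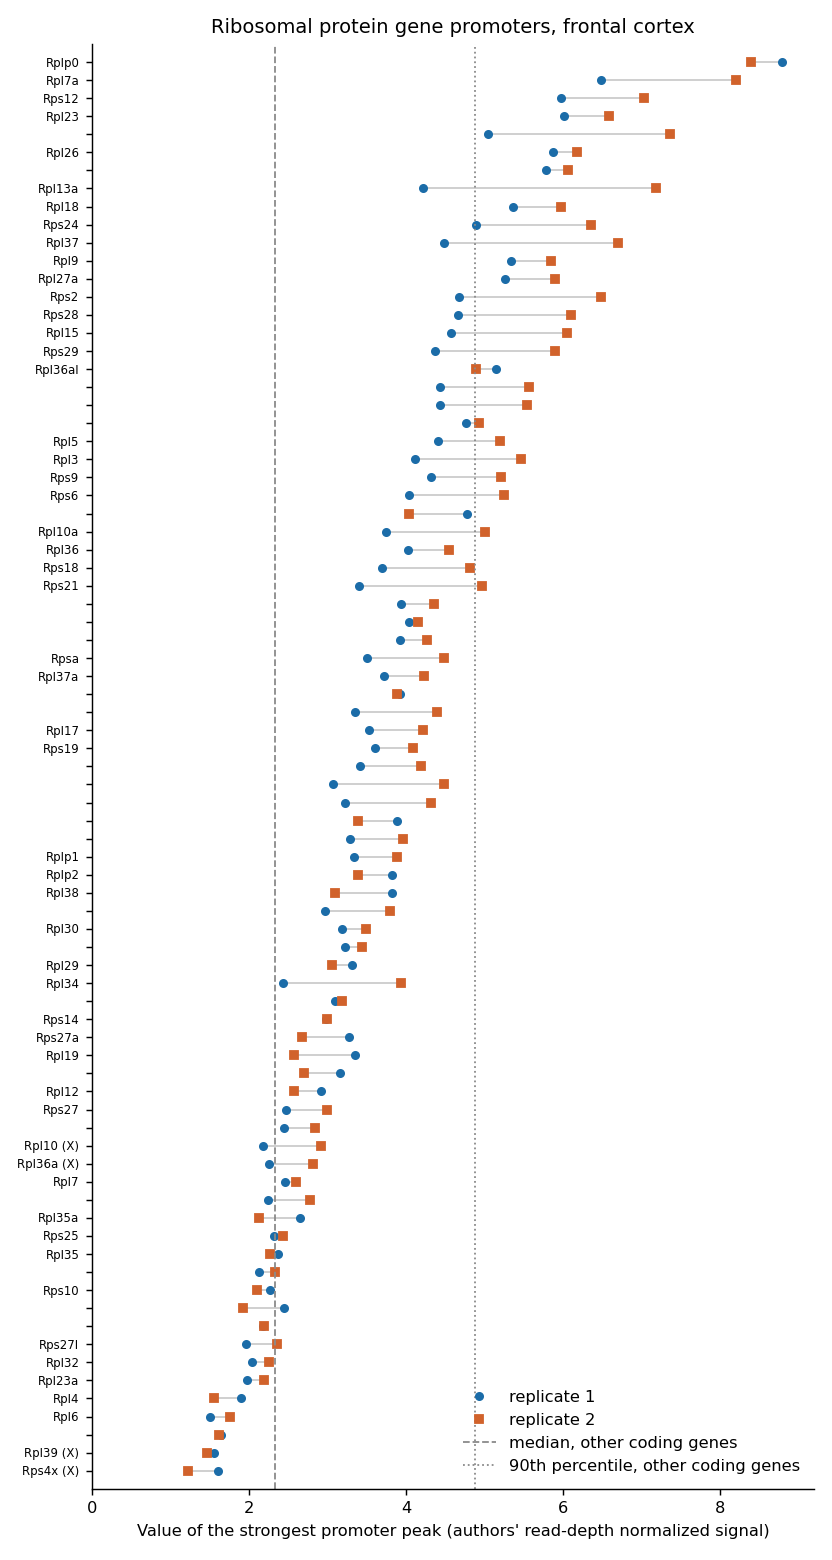
Value of the strongest promoter peak (authors' read-depth normalized signal, horizontal axis) of each of the 79 ribosomal protein genes with a peak in both libraries, in replicate 1 (circles) and replicate 2 (squares), with genes ordered by mean value. The labels name part of the genes and mark X-linked ones, and the dashed and dotted lines are the median (2.33) and the 90th percentile (4.87) of other coding genes, and 66 genes have a mean above the median and 20 above the 90th percentile.

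The median value was 3.80 for the ribosomal protein genes and 2.33 for the other coding genes with a peak in both libraries. In replicate 1 the medians were 3.50 for the ribosomal protein genes and 2.24 for other genes, and in replicate 2 they were 4.08 for the ribosomal protein genes and 2.39 for other genes. Of the 79 ribosomal protein genes, 66 had a mean above the median of other genes, where 50.2% of all coding genes with a promoter peak did. The 90th percentile of other genes was exceeded by 20 of the 79, against a background of 10.1%. The family thus sat in the upper part of the distribution without filling its top. Only Rplp0 was among the 100 highest coding genes, 16 members were among the 1000 highest, and 22.5% of other genes had a value at or above the family's median. The interquartile range was 2.69 to 4.91 for the ribosomal protein genes and 1.28 to 3.64 for other genes.

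**Figure D2:**
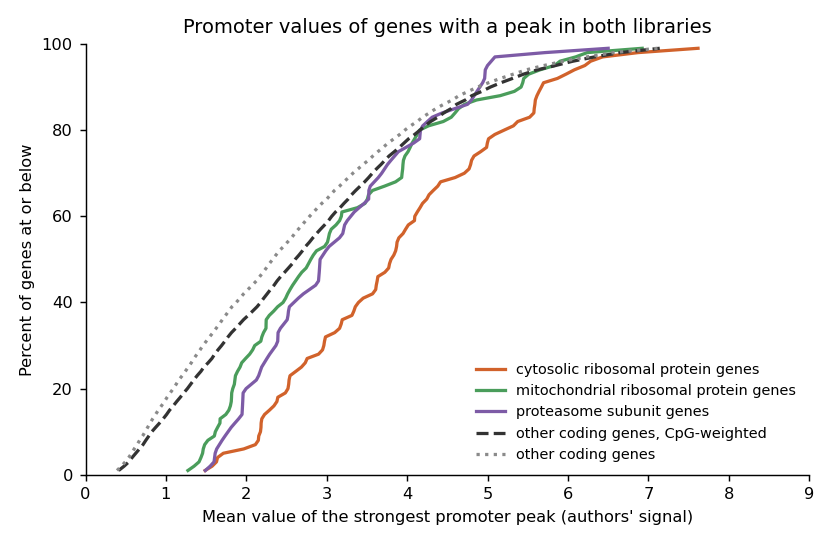
Cumulative share of genes (vertical axis, percent) at or below each mean value of the strongest promoter peak (horizontal axis), for genes with a peak in both libraries. The cytosolic ribosomal protein genes (median 3.80) lie to the right of the mitochondrial ribosomal protein genes (2.80), the proteasome genes (2.92), the CpG-weighted other genes (2.61) and all other coding genes (2.33) over most of the range.

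CpG content is related to promoter values across the genome, so each gene was also read against other genes of the same CpG bin. The CpG-weighted median of other genes was 2.61, and the median of the ribosomal protein genes was 1.46 times as high. Within their own CpG bin, 65 of the 79 were above the median of other genes, 35 above the 75th percentile and 17 above the 90th percentile, with a median percentile of 71.3. Among the 79 genes the Spearman correlation of value and CpG count was 0.42, a description over genes that share both libraries. Rps2 (mean 5.57), Rpl17 (3.87) and Rps14 (2.98) had CpG counts of 9, 11 and 11, but the CpG count is taken at the annotated 5′ end of the gene. For Rps2 that end, at 24718116 on chromosome 17, lies upstream of its peak at 24719901 to 24720160. The 5′ ends of Rpl17 and Rps14 also lie upstream of their peaks, and all these peaks fall outside the counted 1 kb.

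**Figure D3:**
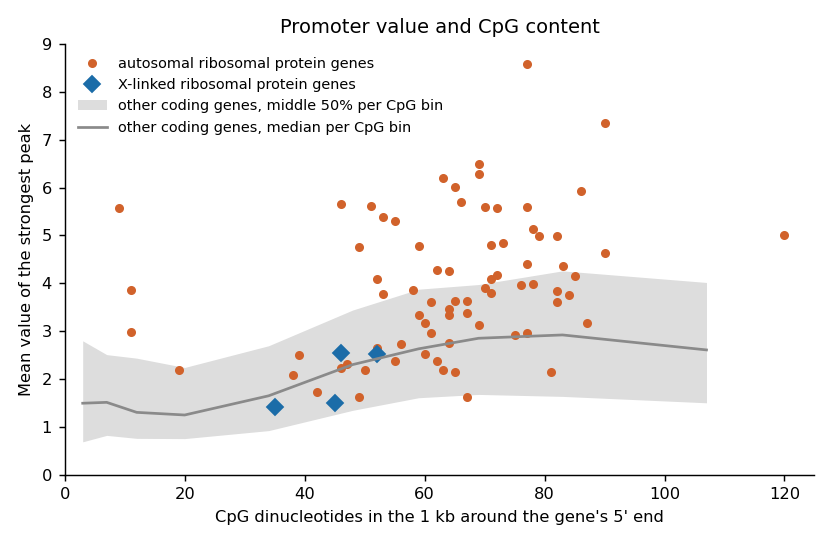
Mean value of the strongest promoter peak (vertical axis, authors' signal) against the number of CpG dinucleotides within the 1 kb centred on each gene's 5′ end (horizontal axis) for the autosomal (circles) and X-linked (diamonds) ribosomal protein genes. The line and band give the median and the middle 50% of other coding genes per CpG bin, and 65 of the 79 ribosomal protein genes lie above the median of their bin.

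Both subunits showed high values. All 32 small subunit genes had a peak in both libraries, with a median value of 4.04, and 44 of 47 large subunit genes did, with a median of 3.70. Within the P-stalk the genes differed. Rplp0 stood far above Rplp1, with 3.34 and 3.88, and Rplp2, with 3.82 and 3.39, which encode the acidic proteins that Rplp0 binds. The values of Rplp1 and Rplp2 overlapped. Rpsa, a small subunit gene whose product is also known as a laminin receptor, had 3.50 and 4.48, near the middle of the family. Of the paralogs with a promoter peak in both libraries, Rpl36al had 5.14 and 4.89, both above its X-linked relative Rpl36a with 2.25 and 2.81. Rps27l had 1.96 and 2.35, below Rps27 with 2.47 and 2.99 in both libraries.

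The 4 X-linked genes were all in the lower part of the family. Rpl10, whose protein joins the large subunit late in its assembly, had 2.18 and 2.91, and Rpl36a, Rpl39 and Rps4x followed with the values above. Their median was 2.02 and their range 1.41 to 2.54, against a median of 3.87 and a range of 1.63 to 8.59 over the 75 autosomal members with a peak in both libraries. The ranges overlapped, since 15 autosomal members were below the highest X-linked member. Other coding genes showed a like difference: the median was 1.29 for the 424 X-linked genes with a promoter peak in each library and 2.37 for the 12986 autosomal ones. A peak in both libraries was present at 44.9% of other X-linked genes and 62.6% of other autosomal genes. The CpG counts of the 4 X-linked members were 35 to 52, below the family's median of 64. Relative to CpG-weighted other genes, the ratio of medians was 0.985 for them and 1.46 for the autosomal members. The part of CpG content in the difference was not tested. The 4 genes are too few for more than this description.

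For 15 of the 79 genes (19.0%, against 20.1% of other genes) the strongest peak also lay within 1 kb of a start of another coding gene, so its value cannot be given to one of the pair. They are Rpl7a (with Med22), Rpl18 (Sphk2), Rpl9 (Lias), Rps28 (Ndufa7), Rpl15 (Nkiras1), Rpl36al (Mgat2), Rps18 (Vps52), Rps27a (Clhc1), Rpl12 (Lrsam1), Rps27 (Rab13), Rpl35a (Iqcg), Rps25 (Trappc4), Rpl35 (Arpc5l), Rps10 (RPS10-NUDT3) and Rpl4 (Zwilch). Their median value was 2.97, and they included both Rpl7a at 7.34 and Rpl4 at 1.72. Many ribosomal protein genes also carry snoRNA genes, whose RNAs guide the modification of ribosomal RNA, within their own span. There were 59 snoRNA genes in 30 members, which all had a promoter peak and a median value of 3.94. Among the 52 members without one, 49 had a promoter peak and the median was 3.61.

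The strongest peaks had the same median width as those of other genes. Their median width was 240 bp in the ribosomal protein genes and 240 bp in other genes, with 260 and 220 bp in replicates 1 and 2 for the ribosomal protein genes and 260 and 240 bp for other genes. The widest belonged to Rps19, a small subunit gene that is mutated in human Diamond-Blackfan anaemia, at 680 bp in both libraries (chr7:24884001-24884680). Rpl39 followed with 500 bp and Rps14 with 460 bp in each. The narrowest were those of Rpl17, at 160 bp in each library, and Rpl38, at 200 and 120 bp, and then Rpl5 and Rpl7a at 180 bp in each. Height and width did not go together at the ends of the list: Rpl39 had one of the widest peaks and one of the lowest values, and Rpl7a the second highest value and one of the narrowest peaks. The strongest peak was the only one in the promoter in 53.2% and 48.1% of the members in replicates 1 and 2, against 37.8% and 40.04% of other genes.

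Every one of the 79 promoters held footprints in both libraries, as did 97.7% of those of other genes. The median was 6.5 per promoter in the ribosomal protein genes and 6.5 in other genes, and the means were 6.83 in the ribosomal protein genes, 7.21 in other genes and 7.27 in CpG-weighted other genes. Within the strongest peak alone, the median was 5 in the ribosomal protein genes and 4 in other genes, and the means were 4.87 in the ribosomal protein genes and 4.37 in other genes. The counts thus go in opposite directions, and neither is far from that of other genes although the peak values are. Rps19 had 11 and 15 footprints in replicates 1 and 2, and Rpl7, a large subunit gene, had 13 and 13. Rps24, Rpl15 and Rps14 shared the next place with a mean of 11. The fewest were in Rps4x with 3 and 2, Rpl36a with 2 and 3, and Rpl17 with 3 and 4.

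Footprints of the ribosomal protein promoters recurred more often in the other library. Of 574 footprints in replicate 1, 57.5% overlapped one of replicate 2, against 48.9% in the promoters of other genes. Of 505 footprints in replicate 2, 63.8% overlapped one of replicate 1, against 58.1% in the promoters of other genes. A larger share was at least 30 bp long, with 4.18% in ribosomal protein genes against 3.35% in other genes in replicate 1, and 6.34% in ribosomal protein genes against 4.53% in other genes in replicate 2. Their bases were less often G or C, at 66.4% and 67.9% in the ribosomal protein genes against 70.7% and 72.2% in other genes. The peak values differed between these groups too, and their part in the recurrence was not tested.

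Peaks and footprints were closely tied to the annotated start, taken for each gene from 1 representative transcript. The centre of the strongest peak lay within 100 bp of it in 59 members (74.7%) in replicate 1 and 61 (77.2%) in replicate 2, against 49.2% and 50.9% of other genes. The median distance was -17.5 and -23.5 bp in the ribosomal protein genes and -34.5 and -36.5 bp in other genes, where negative is upstream. The peak covered the start in 87.3% and 81.0% of members, against 59.7% and 57.7% of other genes. No member had its strongest peak centred more than 500 bp from the representative start. Measured from the 5′ end of the gene instead, 7 of the 79 members lay more than 1000 bp away in each library. Of the 13410 other genes, 1803 and 1840 did. Within 100 bp of the 5′ end were 65.8% of members in each library, against 49.0% and 50.6% of other genes. The farthest from the representative start were Rps25 at 481.5 bp downstream and Rpl4 at -464.5 bp in replicate 1. Both have a peak that is shared with a neighbour. Of the footprints within 1 kb of the representative start, 48.6% and 53.4% lay within 100 bp in the ribosomal protein genes, against 38.2% and 41.9% in other genes. In replicate 1 the bases most often under a footprint were at -11 bp and at 17 to 19 bp, each covered in 35.4% of members, and in replicate 2 they were at -19 and -18 bp, covered in 40.5%. In other genes it was at -17 bp in both, covered in 22.4% and 22.2%.

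**Figure D4:**
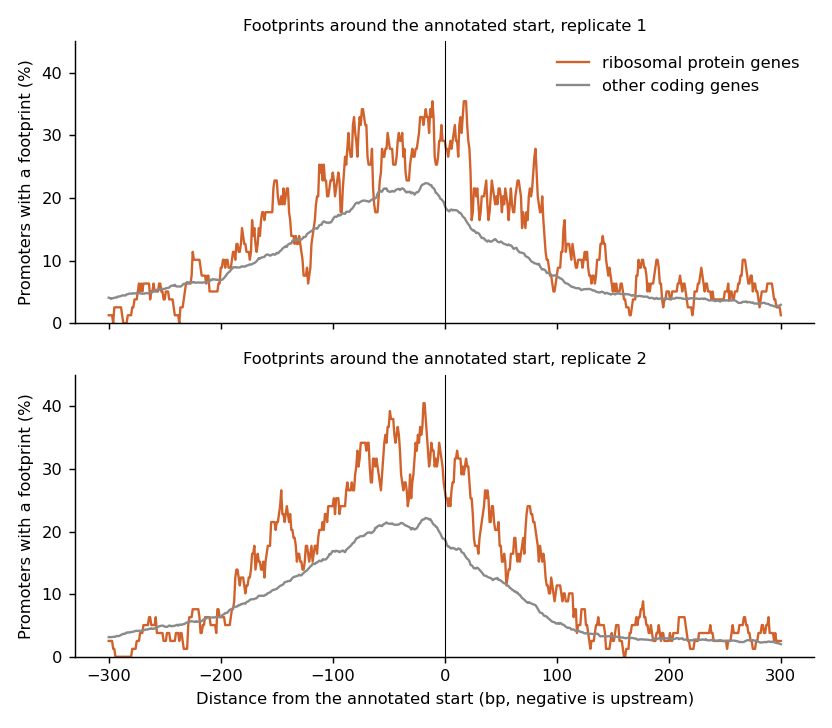
Percent of promoters with a footprint at each base (vertical axis) by distance from the annotated start (horizontal axis, bp) in replicate 1 (upper) and replicate 2 (lower), for the 79 ribosomal protein genes and the 13410 other coding genes with a promoter peak in each library. The ribosomal protein genes reach 35.4% on both sides of the start in replicate 1 and 40.5% just upstream of it in replicate 2, and other genes 22.4% and 22.2% upstream.

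More of the bases around the start also had significant cutting. The bases were counted and need not form a single stretch. The authors' false discovery rate of the cut rate was at most 0.05 over a median of 927 bp in replicate 1 and 792 bp in replicate 2 of the 1 kb on either side of the start in ribosomal protein genes. In CpG-weighted other genes it was 872 and 711 bp, and in all other genes 848 and 684 bp. At a limit of 0.001 the medians were 709 and 576 bp in ribosomal protein genes, 623 and 491 bp in CpG-weighted other genes and 587 and 459 bp in all other genes. The smallest total in any of the 79 genes was 466 and 425 bp at 0.05. Of the 13410 other genes, 787 and 851 had none in that window. Rpl3l and Rpl39l had 0 bp in each library, and Rpl10l had 0 and 26 bp. The window surrounds the representative start, and 1736 and 1776 other genes had their strongest peak centred more than 1000 bp from it. Peak values also differed between the groups, and their part in these totals was not tested.

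The promoter sequences of all 82 genes were searched on both strands, from 250 bp before to 50 bp after the annotated start, for 10 short motifs of factors known to act at promoters. A match is a description of the letters of the reference genome, not a site or a cause. These F1 hybrid mice may carry alleles that differ from those letters, which was not examined here or below. Of the motifs more frequent than in CpG-weighted other genes, the most common was CCGGAAG, the core bound by ETS family factors such as GABP. It was found in 29 of 82 members (35.4%, exact 95% interval 25.1 to 46.7), against 11.1% of other genes and 17.6% when they were weighted by CpG. The palindrome CTCGCGAG, bound by BANP and by ZBTB33 when methylated, was found in 9 members (11.0%, 5.14 to 19.8), against 1.13% of other genes and 1.71% with the weighting. The palindrome TGACGTCA, the cAMP response element (CRE) bound by CREB and ATF factors, was found in 6 members (7.32%, 2.73 to 15.2), against 2.45% of other genes and 3.36% with the weighting. The intervals cover counting error over genes only. The CpG-weighted share lies below the interval for the first 2 motifs and inside it for the CRE.

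The other motifs showed smaller or opposite differences, given here as the share of members against the shares of all other genes and of CpG-weighted other genes. GGGCGG, the SP and KLF box, was found in 52.4% of members, against 45.3% of other genes and 63.9% with CpG weighting. CCAAT, bound by NFY, was found in 30.5%, against 38.5% and 38.7%. CACGTG, an E-box that is a palindrome, was found in 12.2%, against 7.70% and 10.4%. AAGATGGC, bound by YY1, was found in 6.10%, against 3.13% and 4.48%. GCGCATGC, bound by NRF1, was found in 4.88%, against 3.73% and 5.53%. TATAAA was found in 9.76%, against 12.7% and 7.47%, and ACTACAATT, bound by ZNF143, in 1.22%, against 0.554% and 0.727%. For these 7 motifs the CpG-weighted share of other genes lay inside the members' 95% interval, except for SP and KLF, where it was above it by a narrow margin.

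**Figure D5:**
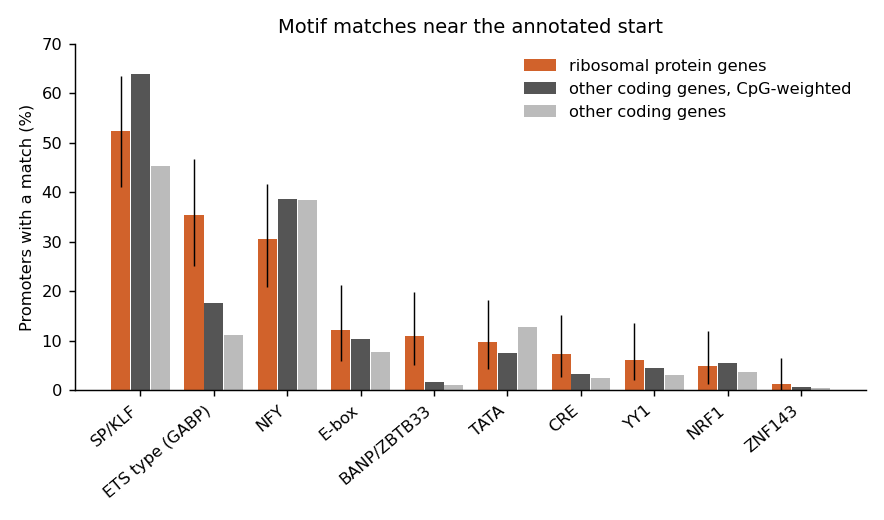
Percent of promoters (vertical axis) with at least 1 match of each motif from 250 bp before to 50 bp after the annotated start, for the 82 ribosomal protein genes, for other coding genes weighted by CpG and for all 21856 other coding genes, with exact 95% intervals for the ribosomal protein genes. ETS matches occur in 35.4%, 17.6% and 11.1%, and CTCGCGAG matches in 11.0%, 1.71% and 1.13%.

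Footprints overlapped the matches of some motifs more than others. Here and below, a match counts as under a footprint if at least 1 bp of it overlaps one. Footprints were denser in members whatever the motif. A base within 100 bp of the start was under one in a mean of 24.1% and 25.7% of members in replicates 1 and 2. In other genes it was 16.5% and 15.9%. The part of this in the differences below was not tested. In a wider window of 500 bp before to 100 bp after the start, 6 of the 7 CRE matches in members were under a footprint in both libraries, against 71.3% of CRE matches in other genes with a promoter peak. For CTCGCGAG it was 6 of 10, against 36.1%, and for NRF1 5 of 7, against 70.6%. For the ETS core it was 11 of 42, or 26.2%, against 26.2% in other genes. TATAAA matches were under a footprint in both libraries in 5 of 23 cases, against 2.87%. They included matches at -30 in Rps2, 18 in Rplp0, 24 in Rpl3 and 38 in Rps28, counted from 1 at the annotated start, so that all but that of Rps2 are downstream of it. In Rplp0 both CCAAT boxes at -87 and -36, which can be read in the sequence above, touched a footprint in both libraries, and so did CACGTG at -5 in Rpl23.

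Some of the CTCGCGAG and CRE matches are shown with 10 bp on each side, in the direction of transcription, because they were the motifs most often under footprints among those in excess, a choice made after the values were seen. Capitals mark the motif. For CTCGCGAG the windows are chr4:86857400-86857427 for Rps6 and chr17:33824545-33824572 for Rps28 on the minus strand, and chr17:28328525-28328552 for Rpl10a and chr11:68901531-68901558 for Rpl26 on the plus strand, all under a footprint in both libraries. That of Rpl27a, chr7:109519163-109519190 on the plus strand, was under none.
Rps6: gccggctgttCTCGCGAGaacttagagc
Rps28: cgcgtgcggtCTCGCGAGagcgaaagtg
Rpl10a: acgggcaactCTCGCGAGaacgcgggct
Rpl26: ctccgagactCTCGCGAGatctcgcggc
Rpl27a: cgcctgctacCTCGCGAGacttcgtgag
The motif starts at -5 in Rps6, 1 in Rps28, -33 in Rpl10a, -42 in Rpl26 and 27 in Rpl27a. Rps6 encodes the small subunit protein that is phosphorylated by S6 kinase downstream of mTOR, and had values of 4.03 and 5.24.
For the CRE the windows are chr7:3703974-3704001 for Rps9, chr7:109519088-109519115 for Rpl27a and chr7:45717982-45718009 for Rpl18 on the plus strand, and chr12:69159233-69159260 for Rps29 on the minus strand. All 4 were under a footprint in both libraries.
Rps9: cggtgcgtgaTGACGTCActacaaggcg
Rpl27a: ccgggagccgTGACGTCAggagcccttc
Rps29: cggcgggccgTGACGTCActcactgtgc
Rpl18: cgcgctcatgTGACGTCAcccgtgcacc
Members with a CRE match had a median value of 5.36 (6 genes), against 3.64 in the 73 without one. Members with CTCGCGAG had a median of 4.64 (9 genes), against 3.63 in the 70 without. For the ETS core the median was 3.61 in the 28 genes with a match, against 3.87 in the 51 without. Higher medians with a match were not particular to the CRE and CTCGCGAG. They were 4.37 against 3.54 for CCAAT (25 genes with a match), 4.60 against 3.77 for TATAAA (8 genes) and 4.50 against 3.78 for the E-box (10 genes). NRF1 and SP/KLF matches went the same way, and YY1 and ZNF143 matches the opposite way. In the wider window the CRE median was 5.14 in 7 genes, against 3.70.

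The TOP motif was looked for at the annotated start itself. A cytosine followed by 4 pyrimidines began the representative transcript of 10 members (12.2%, exact 95% interval 6.01 to 21.3), against 2.22% of other genes. They included Rpl4, Rpl30, Rpl32, Rpl36, Rpl37, Rpl37a, Rps2, Rps21 and Rps24. When any annotated transcript of the gene was allowed, 34 members (41.5%) had such a start, against 8.40% of other genes, with a median of 6 annotated starts per member and 3 per other gene. Among other genes with a promoter peak, which have a median of 5 starts, it was 10.5%. A run of at least 7 pyrimidines touched the 10 bp on either side of the representative start in 34 members (41.5%), against 19.2%. The longest runs were 20 bases in Rps2 and Rpl34 and 19 bases in Rps24. Annotated starts are not measured ones, and a start that is annotated a few bases off loses the motif.

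The libraries ranked the members similarly. The Spearman correlation of the values in replicate 1 and replicate 2 was 0.91 over the 79 ribosomal protein genes and 0.96 over other genes. Replicate 2 had the higher value in 59 members and replicate 1 in 20. The median log2 ratio of replicate 1 to replicate 2 was -0.17 with an SD over genes of 0.26 in the ribosomal protein genes, and -0.15 with an SD of 0.31 in other genes. In other genes weighted to the members' values it was -0.23, so other genes of like value also had lower values in replicate 1. The largest differences were in Rpl13a, with 4.21 and 7.18, and Rpl34, with 2.43 and 3.93. In the opposite direction they were in Rps4x, with 1.60 and 1.23, and Rpl19, with 3.35 and 2.58. The strongest peaks of the 2 libraries overlapped in 78 of the 79 genes.

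Ribosomal protein genes have many processed pseudogenes, and reads from near-identical copies cannot be placed with certainty. The sequences of the 79 strongest peaks were therefore searched against the genome. None had another match of at least 90% identity over at least 80% of its length. A copy of a transcript would hold only part of a peak that spans the start, so this rule could not exclude such copies. Rpl37a had a more distant match over its full length and Rpl29 one over 53.5% of its peak. Their values, 3.71 and 4.23 for Rpl37a and 3.31 and 3.05 for Rpl29, carry that limit. Some other members had matches over smaller parts of the peak, at most 38.75% (in Rpl17), and their values carry it too.

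Related genes were read in the same way. Of 5 ribosomal proteins whose symbols the naming rule misses, all had a promoter peak in both libraries, with a median of 4.30. Fau, which encodes a small subunit protein fused to a ubiquitin-like domain, had 4.74 and 6.08, in a peak that it shares with Mrpl49. Rack1, a scaffold on the small subunit, had 2.44 and 2.70. The 16 other translation genes known for TOP mRNAs all had a promoter peak, and their median of 4.72 was above the 3.80 of the ribosomal protein genes. They included Npm1 with 5.79 and 7.59, Eef1g with 4.80 and 7.40, and Eef1a1, the main elongation factor gene of many tissues, with 3.26 and 3.60. The 16 ribosome assembly factor genes had a median of 3.44, with Nop56, a core protein of box C/D snoRNA particles, at 7.87 and 7.86. Mitochondrial ribosomal protein genes, of which 78 of 78 had a promoter peak, had a median of 2.80, which was 1.17 times that of other genes of the same CpG content. For the 37 of 39 proteasome genes with a peak the median was 2.92 and the ratio 1.23, against 1.46 in the cytosolic ribosomal protein genes. No test was made of these differences between lists, which were chosen with results of these data in view.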

How the data were processed

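The text file that the authors deposited beside each library says that its tables use mm10 and derive from its own alignment, so peaks and footprints were called per library. The deposited peak lists hold the authors' signal, normalized to read depth with no scale given. The deposited footprint lists repeat 1 constant, 0.01, taken here as the p-value or q-value threshold of the call. A further deposited table holds, as a q-value, the false discovery rate of cutting at positions where it is at most 0.05. For the aligner, callers and depth, nothing was given in the sources used here. The labels' protocols name nuclei isolated from tissue.

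The longer of each library's 2 peak lists was used, with the GRCm38.p6 genome and GENCODE M21. A promoter peak needed at least 1 bp within 1 kb of any annotated start of the gene, in both libraries. A promoter's footprints were those with their centre in that window. The representative start is that of a protein-coding transcript with the basic tag, the best APPRIS rank and the best support level. Other genes were weighted to the members over 10 CpG bins, with no random draw. Values are means over 2 libraries, described with no test. Intervals are exact (Clopper-Pearson, 95%). Python 3.11.15, numpy 2.4.6, pandas 2.3.3, scipy 1.17.1 and BLAST 2.17.0 were used, and the calculations were tested on simulated data.

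The genes named are the 6 highest and 6 lowest by mean value, those without a peak, the P-stalk genes and Rpsa, paralogs, X-linked members, the extremes of footprint number, width and library ratio, and those that share a peak. Rps4l, a paralog listed for naming, was not matched. Some of these genes are not reported here. The members, lists and motifs were chosen with earlier results of these data known. Alternatives changed the peak list, window, start, overlap, members, weights, footprint count and motif window, and left out each library.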

Additional observations from a re-analysis of the deposited data

How the results depend on the processing

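Of 78 recomputed values over 19 results, 60 stayed within the spread between libraries or the 95% interval, 15 moved further and 3 passed from below to above 1. The number of members with a promoter peak in both libraries was 79 to 80 and the median value 3.50 to 4.06 with either library left out, the median width 220 to 260 bp and the median number of footprints 6 to 7. The value, width and footprint number are averages over the libraries. Leaving out a library therefore keeps them within the spread between libraries almost by design. Those outcomes are counted among the 60 but do not measure stability. The ratio of median values, 1.46, was 1.38 on the shorter peak lists, 1.63 without CpG weights and 1.44 to 1.52 with a library left out. The ratio of mean footprints to CpG-weighted other genes changed side with the processing. It was 0.939, and 0.901 on the shorter lists, 0.915 in promoters of 2.5 kb, 0.813 against other genes weighted by promoter value, 0.967 with that weighting and footprints in the strongest peak (chosen after seeing the data), and 0.941 to 0.959 with a library left out. It was above 1 in promoters of 500 bp (1.01), with 1 representative start per gene (1.04) and for footprints in the strongest peak (1.09). That last count had a median of 5. The cause was not tested. In the wider motif window SP and KLF matches were in 70.7% of members, against 72.2% of CpG-weighted other genes, a share that here lies inside the members' interval (59.6 to 80.3). CCAAT was in 46.3%, against 56.0%, and TATAAA in 22.0%, against 17.0%. From the annotated 5′ end of the gene in place of the representative start, the median position of the strongest peak was 7 bp in place of -20.5 bp and that of footprints 5.5 bp in place of -15.4 bp. A TOP-like start was in 41.5% of members over any annotated transcript, chosen after seeing the data. No paired analysis was possible because there is only 1 group. With 2 libraries of unknown depth, differences between single genes are limited to those beyond the spread between libraries, and the signal scale is not stated.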
